A study of Mus musculus with 16 samples.

Results

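The axon guidance set comprised 46 genes that encode ligands and receptors of the Eph/ephrin, semaphorin, Slit/Robo and netrin families, of 21755 protein-coding genes on the autosomes and the X chromosome. The rule named the genes and used no measured value, although the list was drawn up with earlier results of these data known, and each gene was followed in a list of 6798 chromatin loops called in 10 kb bins. A loop was assigned to a gene when 1 of its 2 anchor bins lay in the gene body or within 20 kb of the annotated start site, and a gene was called spanned when it lay wholly between both anchors. Positions are those of mm10 (GRCm38) with the genes of GENCODE vM21. By this rule, 78 loops, or 1.15% of the list, had an anchor at a guidance gene. They formed 82 pairs of a gene and a loop, because 4 loops touched 2 guidance genes each.

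The list came from Micro-C, a chromosome conformation capture method that cuts chromatin with micrococcal nuclease and so reads contacts at the scale of nucleosomes. Whole cochleae of C57Bl/6 mice were used, labelled P0 for the samples and P0/1 in the design text, without any treatment or genotype contrast. The reads of 4 replicates, of which the study's text calls the last a technical one, were merged before loops were called. By the study's counts, that last replicate had far more read pairs than any other, so the replicates did not contribute equally. Loops of the whole organ combine hair cells, supporting cells, neurons, glia, mesenchyme and other cells, and a loop cannot be assigned to any of them. Because 1 merged list exists, no value below carries a replicate error, and the read depth behind a loop is unknown from the list. The list holds no expression values, so whether a gene was active in these cochleae could not be read from it.

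Axon guidance molecules steer growing nerve fibres. Ephrins on 1 cell bind Eph receptor tyrosine kinases on another and signal into both cells. Secreted Slits repel axons through Robo receptors, and netrin-1 attracts them through Dcc and repels them through Unc5 receptors. Most class 3 semaphorins act through a neuropilin that binds the ligand and a plexin that carries the signal. In the cochlea these families are known for the placement and fasciculation of spiral ganglion neurons and for the choice between inner and outer hair cells as targets.

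Of the 46 genes, 32 had an anchor in the body or near the start site, against 35.5% of all protein-coding genes. Guidance genes are long, however, with a median of 151 kb against 17.4 kb for all protein-coding genes, and long genes hold more bins. For each gene the 100 protein-coding genes nearest in length were therefore taken, and the share of them with a loop was summed over the set. Among these genes of like length 59.6% had an anchor, which gave an expected 27.4 of 46. For anchors in the gene body the count was 30 of 46, against 24.5 expected from like length, 53.2% of genes of like length and 24.1% of all genes. Both counts were thus a few genes above those of equally long genes. With loops of FDR under 0.01 alone, 20 genes had an anchor in the body or near the start against 19.3 expected, so the first of these differences was nearly gone.

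In proportion, the set stood furthest above genes of like length at the start sites. An anchor within 20 kb of the start site was found at 27 genes, where 15.3 were expected from like length; the shares were 33.3% among genes of like length and 27.2% among all genes. The start site itself lay inside an anchor bin in 16 genes, where 5.06 were expected, with 11% among genes of like length and 7.1% among all genes. With the start of any annotated transcript the count was 21 against 10.7 expected, and that of genes with an anchor within 20 kb was 30 against 23.2. With loops of FDR under 0.01 the start site lay in an anchor bin in 8 genes against 2.36. Loops with both anchors in the body of 1 gene were listed for 11 genes against 7.39 expected (16.1% of like length, 2.05% of all). Spanning loops covered 16 genes against 14.0 expected (30.3% of like length, 28.1% of all), so spanning was close to the background. The surroundings differed as well. Guidance genes had a median of 3 other protein-coding start sites within 500 kb of their own, genes of like length had 7 and all genes had 16, while the median number of anchor bins in the same stretch was 6 in each of the 3 groups. The part of this gene-poor setting in the start site counts was not tested.

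**Figure D1:**
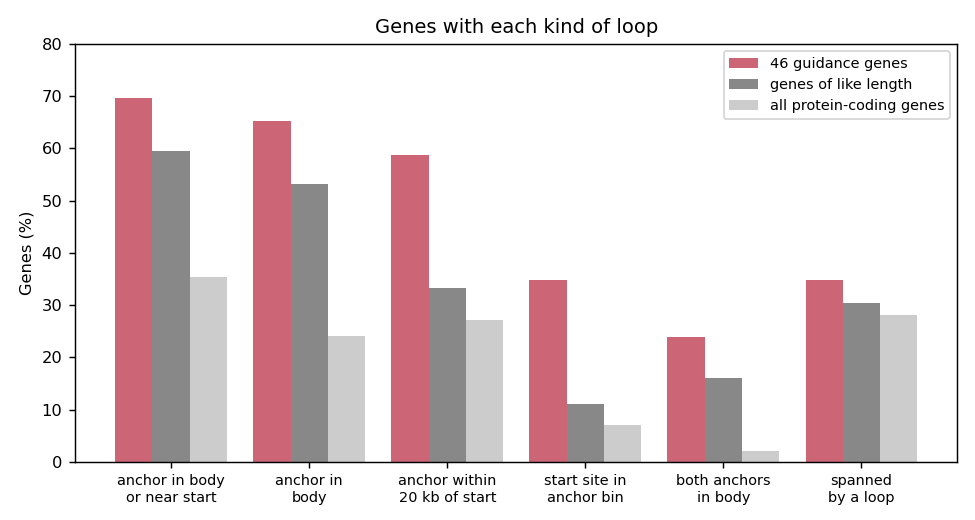
Percentage of genes (vertical axis) with each kind of loop, for the 46 guidance genes, for genes of like length (100 per guidance gene) and for all 21755 protein-coding genes. The tallest gap in proportion to like length is for start sites inside an anchor bin, where 34.8% of guidance genes stand against 11% and 7.1%.

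The 16 genes whose start site lay in an anchor bin came from all 4 families. They were the Eph receptors Epha3, Epha4, Epha7, Ephb1 and Ephb3, the ephrins Efna2 and Efna3, Robo2, Slit3, Ntn1, Nrp2, Plxna4 and the semaphorins Sema3c, Sema3d, Sema5a and Sema5b. These start bins took part in 18 loops, of which 12 ran downstream, in the direction of transcription, and 6 ran upstream. By family, the count was 7 of 21 for Eph/ephrin genes against 1.9 expected from like length, 6 of 14 for semaphorin genes against 1.69, 2 of 5 for Slit/Robo genes against 0.81 and 1 of 6 for netrin genes against 0.66. In the netrin family the count was therefore near that of like length. The 30 other genes had their start outside every anchor bin. At the limit of 20 kb, the genes just inside were Ephb2 and Slit1, whose nearest anchors lay 14013 and 16336 bp from the start, and the gene just outside was Epha2, with its nearest anchor at 21240 bp.

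**Figure D2:**
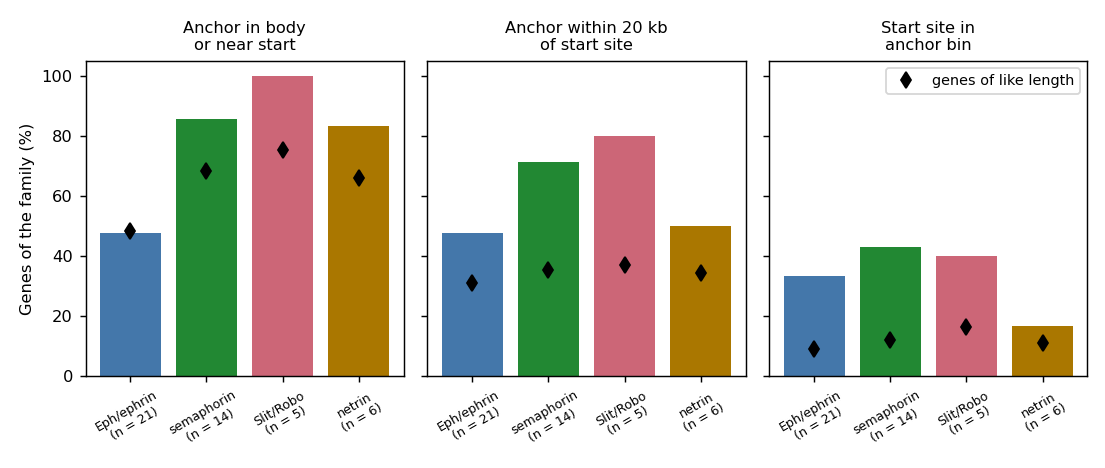
Percentage of the genes of each family (vertical axis; n is the number of genes) with an anchor in the body or near the start, with an anchor within 20 kb of the start site, and with the start site inside an anchor bin. Diamonds mark the share among genes of like length; the Eph/ephrin bar meets its diamond in the left panel (10 of 21 against 10.1 expected) and lies above it in the right panel (7 against 1.9).

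The promoters of the set were rich in CG dinucleotides. A RefSeq promoter (GRCm38.p6), running from 250 bases before to 50 after a start site, could be matched to 37 of the 46 genes, and the promoter nearest the gene's start was taken. The median was 23 CG dinucleotides per 300 bases over these 37 promoters. It was 23 over the 14 of them with the start site in an anchor bin and 21 over the 23 others. Over 16450 protein-coding genes matched in the same way the median was 14. No such value was available for genes of like length. The 200 bases before the start site are shown for Epha7, Robo2 and Efna2, because these start bins anchor the longest loop of the set, a loop between 2 guidance genes and a loop between 2 start sites. Capitals mark CG dinucleotides, and each sequence is read 5′ to 3′ on the strand of its gene.
Epha7, plus strand, chr4:28812931-28813130: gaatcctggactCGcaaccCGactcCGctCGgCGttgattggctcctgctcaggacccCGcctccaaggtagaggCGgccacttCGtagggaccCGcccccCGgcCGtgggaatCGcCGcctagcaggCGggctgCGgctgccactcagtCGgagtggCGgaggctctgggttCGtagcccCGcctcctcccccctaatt
Robo2, minus strand, chr16:74411826-74412025: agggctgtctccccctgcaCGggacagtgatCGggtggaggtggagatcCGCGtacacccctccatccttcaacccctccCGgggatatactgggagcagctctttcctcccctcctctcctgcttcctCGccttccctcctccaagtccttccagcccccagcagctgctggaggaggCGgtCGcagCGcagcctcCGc
Efna2, plus strand, chr10:80179282-80179481: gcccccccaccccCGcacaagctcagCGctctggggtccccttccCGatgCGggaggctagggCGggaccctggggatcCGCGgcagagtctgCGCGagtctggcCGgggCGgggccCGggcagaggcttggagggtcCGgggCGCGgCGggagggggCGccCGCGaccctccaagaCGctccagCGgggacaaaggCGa
The stretches shown hold 19 CG dinucleotides for Epha7, 10 for Robo2 and 22 for Efna2.

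Loops at guidance genes were long. Their distance, taken between the starts of both bins, had a median of 480 kb with quartiles of 227.5 and 967.5 kb, and ranged from 70 to 1890 kb. The median was 280 kb in the whole list and 330 kb over the 6442 gene and loop pairs of genes of like length. In these pairs a loop was counted again for each gene it touched. Over the 3012 different loops at genes of like length, the median was 300 kb, 5.81% reached 1 Mb and 30.6% were under 200 kb. Loops of 1 Mb or more made up 19 of 78, or 24.4%, against 6.41% of the list and 6.63% of the pairs of like length. With loops of FDR under 0.01 alone, the share at guidance genes was lower, at 17.6%. No share of the list or of like length was available at that limit. The part of the gene-poor setting in the loop distances was not tested. Loops under 200 kb made up 17.9%, against 34.2% of the list and 25.1% of the pairs of like length. For the 49 loops anchored within 20 kb of a start site alone, the median was 400 kb and 20.4% reached 1 Mb. Over the 1361 different loops of this kind at genes of like length, the median was 240 kb and 4.56% reached 1 Mb. The long loops were spread over the families, with 8 of 37 in the semaphorin, 5 of 17 in the Slit/Robo, 3 of 14 in the Eph/ephrin and 3 of 10 in the netrin family. The strength of the calls was close to that of the list. The median false discovery rate (FDR), the caller's adjusted p-value, was 0.0136 at guidance genes and 0.0113 in the list, and 82.1% against 78.8% of loops had an FDR under 0.05.

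**Figure D3:**
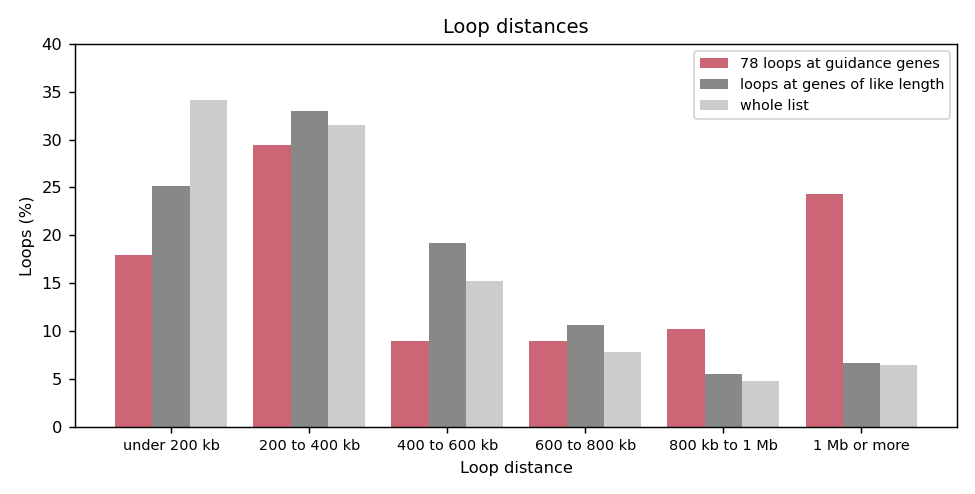
Percentage of loops (vertical axis) in 6 classes of loop distance, for the 78 loops at guidance genes, for the 6442 gene and loop pairs of genes of like length and for the 6798 loops of the list. The class of 1 Mb or more holds 24.4% of the loops at guidance genes and under 7% of either comparison group.

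The Eph/ephrin family, with 21 genes the largest, had fewer loops than genes of like length. An anchor was found at 10 of its genes against 10.1 expected, and its 15 gene and loop pairs stood against 20.7 expected from like length. Of the 20.7 expected pairs, 2.04, 2.38 and 2.13 belonged to Epha5, Epha6 and Efna5, which had no loop. Of the 9 EphA receptors only Epha3, Epha4 and Epha7 had an anchor, where 5.16 were expected, and in all 3 the start site lay in an anchor bin. Epha4 (chr1:77367185-77515088, minus strand), a receptor of both ephrin classes that is known in the cochlea for the bundling of spiral ganglion axons, had 3 loops, and 83 of its 100 genes of like length had fewer. Exon numbers here and below follow the lowest-numbered annotated transcript of each gene. The start bin of Epha4 was joined to a bin 1590 kb downstream (FDR 0.0334), a neighbouring bin around exon 3 was joined to a bin at exon 6 within the gene (100 kb, FDR 0.0178), and a bin 19.9 kb upstream was joined to a further one 360 kb away (FDR 0.0235). No other protein-coding start site lay within 500 kb of Epha4.

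Epha7 (chr4:28813131-28967499, plus strand), whose product limits axon growth on ephrin-A substrates, had 2 loops, both running upstream. Its start bin was joined over 1890 kb (FDR 0.0288), the longest loop of the set, and the next bin upstream over 840 kb (FDR 0.0136). Neither partner bin touched a protein-coding gene. The single loop of Epha3 (chr16:63543534-63864175, minus strand) joined its start bin to a bin 870 kb upstream with an FDR of 0.000292, lower than that of 86.6% of the list. Like Epha7, Epha3 had no other protein-coding start site within 500 kb.

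The other 6 EphA receptors, Epha1, Epha2, Epha5, Epha6, Epha8 and the kinase-inactive Epha10, had no anchor. For 3 long members of the family this set them apart from most genes of their length. Epha6 (952 kb) and Epha5 (363 kb), together with the ligand gene Efna5 (277 kb), had no loop, while 68, 81 and 85 of their 100 genes of like length had at least 1. The nearest anchor bin of the list lay 985531 bp from the start of Epha6, 1162619 bp from that of Epha5 and 438684 bp from that of Efna5. None of the 3 genes was spanned either, and none had another protein-coding start site within 500 kb. Whether these regions were deficient in reads could not be examined in the loop list. Epha1, Epha2 and Epha8 are 14.8 to 28.1 kb long and each lay inside a loop, the smallest being 360 kb, 90 kb and 160 kb long. The loop around Epha2 (FDR 0.000283) enclosed no other whole protein-coding gene.

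Among the EphB receptors, which bind the transmembrane ephrin-B ligands, Ephb1, Ephb2 and Ephb3 had anchors and Ephb4, known for its role in blood vessels, and the kinase-inactive Ephb6 had none. The start bin of Ephb1 (chr9:101922128-102354693, minus strand) was joined to a bin 660 kb downstream (FDR 0.00186), and the bin just upstream of the start to another at 1050 kb (FDR 0.00437), so that the longer loop enclosed the whole gene. Ephb2 had 1 loop, which ran from a bin upstream of the start to a bin around exons 7 to 9 (180 kb, FDR 0.000121). Ephb3, at 18.6 kb a short gene, had its start bin joined to a bin 190 kb downstream (FDR 0.000204). Of its 100 genes of like length, 76 had no loop.

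The ephrin-A ligands, tethered to the membrane by a lipid anchor, had short loops where they had any. The start bin of Efna2 (chr10:80179482-80190010, plus strand), which also held the start site of 1600002K03Rik, was joined over 70 kb to a bin in which Ndufs7 starts, a subunit gene of mitochondrial complex I (FDR 0.0119). It was the shortest loop of the set and the only one, among 50 pairs of a gene and a loop anchored near its start site, whose far bin held a protein-coding start site. Both Efna2 anchors held an exact match to the consensus of CTCF, the zinc finger protein that halts loop extrusion, and the matches faced each other. Efna3 and Efna4 are neighbours and shared 1 loop: the start bin of Efna3, within 20 kb of the start of Efna4, was joined to a bin 150 kb away (FDR 0.0222) and so enclosed Efna4. Efna1, on the other side of Efna3, had no loop, its start lying 38859 bp from the nearest anchor.

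Of the ephrin-B ligands, Efnb2, which marks arteries and also guides axons, had 2 strongly called loops. Bins centred 13.8 and 23.8 kb upstream of its start were joined to bins 500 kb (FDR 0.000136) and 300 kb (FDR 4.37e-05) further upstream, while its 43.8 kb body held no anchor. Of its genes of like length, 84 had fewer than 2 loops. Efnb3 had none.

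All 5 Slit/Robo genes of the set had an anchor, where 3.77 were expected, and they took part in 18 gene and loop pairs against 11.1. Of Robo3 and Robo4, which were outside the set, only Robo3 had an anchor. Robo1 (chr16:72308306-73046095, plus strand), a receptor gene of 738 kb, had 6 loops, more than 89 of its genes of like length, although none of its anchors lay within 20 kb of the start. A loop of 250 kb (FDR 0.00126) joined 2 introns, from 46.7 to 297 kb past the start, and a stronger one of 310 kb (FDR 3.77e-05) joined an intron at 347 kb to exons 7 and 8 at 657 kb. A bin 83.3 kb upstream of the start was joined to 2 places in the gene. They lay 307 kb (loop of 390 kb, FDR 0.0231) and 667 kb (loop of 750 kb, FDR 0.0896) past the start. The matches to the CTCF consensus in both anchors of the 250 kb loop had no mismatch and are shown with 8 bases on each side, with the match in capitals, 5′ to 3′ on the strand of the match.
Robo1 intron, plus strand, chr16:72356725-72356754: tgtcttggCCACTAGATGGCACtcacctgc
Robo1 intron, minus strand, chr16:72605249-72605278: cacggtttCCACTAGAGGGCAGtcgtttgg
The first match lies on the plus strand at the left anchor and the second on the minus strand at the right anchor, so that they face each other.

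Robo1 and Robo2 lie on chromosome 16 in opposite directions, with their 3′ ends towards each other, and 2 loops reached from the 3′ part of Robo1 across the space between them. A bin holding exons 20 to 23 of Robo1 was joined over 1410 kb to the start bin of Robo2 (chr16:73891839-74411825, minus strand; FDR 0.00434), and a bin holding exons 18 and 19 was joined over 1690 kb to a bin beyond that start (FDR 0.0271), enclosing Robo2. The start bin of Robo2 had a further loop of 1320 kb (FDR 0.0701), to a bin between both genes, and a bin inside Robo2 had 1 of 960 kb (FDR 0.0679). All 3 loops of Robo2 thus ran downstream, in the direction of Robo1. Neither start site had another protein-coding start site within 500 kb.

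The ligand Slit3 (chr11:35121224-35708507, plus strand) had 5 loops, of which those of 540 and 820 kb enclosed the start of the gene. Its start bin was joined to an intron 284 kb inside the gene (280 kb, FDR 7.99e-05), and a second loop within the gene joined an intron to exons 25 and 26 (210 kb, FDR 0.0115). Upstream, 3 adjacent bins were each joined to a different place: to 16.2 kb before the start (220 kb, FDR 0.0150), to the middle of the gene (540 kb, FDR 0.00271) and to exons 30 to 32 near its end (820 kb, FDR 0.00619). Slit2 (chr5:47983138-48307733, plus strand) had 3 loops that all ran upstream over 970 to 1690 kb, 2 of them from a bin 8.14 kb before the start (FDR 0.0108 and 0.0474). The far ends of the 1530 and 1690 kb loops were adjacent bins, and another loop enclosed the gene. Slit1 (chr19:41600257-41743665, minus strand) had the strongest loop of the set, a 110 kb loop from 21.3 kb upstream of the start, in the body of Arhgap19, to exons 5 to 8 (FDR 1.81e-05, lower than 97.5% of the list).

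In the netrin family, 5 of 6 genes had an anchor against 3.95 expected, and the 10 gene and loop pairs stood against 10.4. Ntn1 (chr11:68209364-68400823, minus strand), which encodes the ligand netrin-1, had a single loop from its start bin, 400 kb downstream into the body of Stx8 (FDR 4.03e-05). The attractant receptor gene Dcc (chr18:71253634-72351069, minus strand), the longest of the set at 1097 kb, had 4 loops, all in the inner and 3′ part of the gene: the nearest anchor lay 341069 bp from the start site. A pair of loops of 110 and 200 kb met in 1 intronic bin (FDR 0.0684 and 0.0777), and a pair of 1110 and 1730 kb ran back past the start site to adjacent bins upstream of the gene (FDR 0.0271 and 0.0103). Dcc therefore had no call near its start.

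The repulsive netrin receptors differed among themselves. Unc5b (chr10:60762593-60831581, minus strand), at 69.0 kb, had 3 loops of 200 to 290 kb, all running upstream, and 97 of its genes of like length had fewer. The strongest of them joined exons 4 to 13 to a bin 233 kb upstream of the start (FDR 9.47e-05). Unc5c had 1 loop that ran along almost the whole gene, from 9.78 kb to 360 kb past the start (350 kb, FDR 0.00332). Unc5d, at 573 kb, had a single loop of 1340 kb (FDR 0.0732) from an intron, and 62 of its genes of like length had more. Unc5a had no anchor and lay inside a 270 kb loop (FDR 0.000120).

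The semaphorin genes of the set had an anchor at 12 of 14 genes against 9.56 expected, and 39 gene and loop pairs stood against 22.4 from like length. The 17 further semaphorin and plexin genes outside the set were at the level of like length, with an anchor at 6 against 6.01 expected and the start site in an anchor bin at 2 against 1.21. Both neuropilins had anchors. The loops of Nrp1, but only 2 of the 6 loops of Nrp2, reached upstream into a pair of related genes. All 3 loops of Nrp1 (chr8:128358604-128503363, plus strand) ended in the body of Pard3, a cell polarity gene: the bin at exon 2 of Nrp1 was joined to Pard3 over 1170 kb (FDR 0.00406) and 780 kb (FDR 0.0182), and the bin at exons 11 and 12 over 1290 kb (FDR 0.0165) to the same Pard3 bin as the first. At Nrp2, 2 loops from the bin before the start ended in the body of Pard3b, the paralog of Pard3, at 780 kb (FDR 0.0321) and 300 kb (FDR 0.0460). The 2 neuropilin genes lie on chromosomes 8 and 1, each downstream of its Pard3 relative, so that these are separate loops in a like order of genes.

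Nrp2 (chr1:62703285-62818695, plus strand), the neuropilin through which Sema3f acts on spiral ganglion axons, had 6 loops in all, more than any of its 100 genes of like length. Apart from the pair to Pard3b, its start bin was joined to a bin with the start of the noncoding gene 9530026F06Rik 1330 kb upstream (FDR 0.00447), the next bin, at exon 2, was joined 1530 kb upstream (FDR 0.0598), and 2 bins of the gene were joined downstream to the body of Ino80d (250 kb, FDR 0.00296, and 180 kb, FDR 0.0246). Matches to the CTCF consensus, with at most 1 mismatch, stood face to face in the anchors of the 1330 kb loop of Nrp2 and of the 1170 kb loop of Nrp1. They are shown with the match in capitals, to allow both neuropilin loops to be compared.
Nrp2 loop, far anchor, plus strand, chr1:61377251-61377280: gaaaggacCCGCTAGGGGGCAGtgtgtgca
Nrp2 loop, anchor at the start, minus strand, chr1:62701195-62701224: tttccaatCCTCTAGGGGGCAGcactcaat
Nrp1 loop, far anchor in a Pard3 intron, plus strand, chr8:127191507-127191536: ttgagttaCCACTAGAGGGCAGcgcaacaa
Nrp1 loop, anchor in an annotated Nrp1 exon, minus strand, chr8:128363417-128363446: actcatgaCCACTAGATGGTGCtatggcgc

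**Figure D4:**
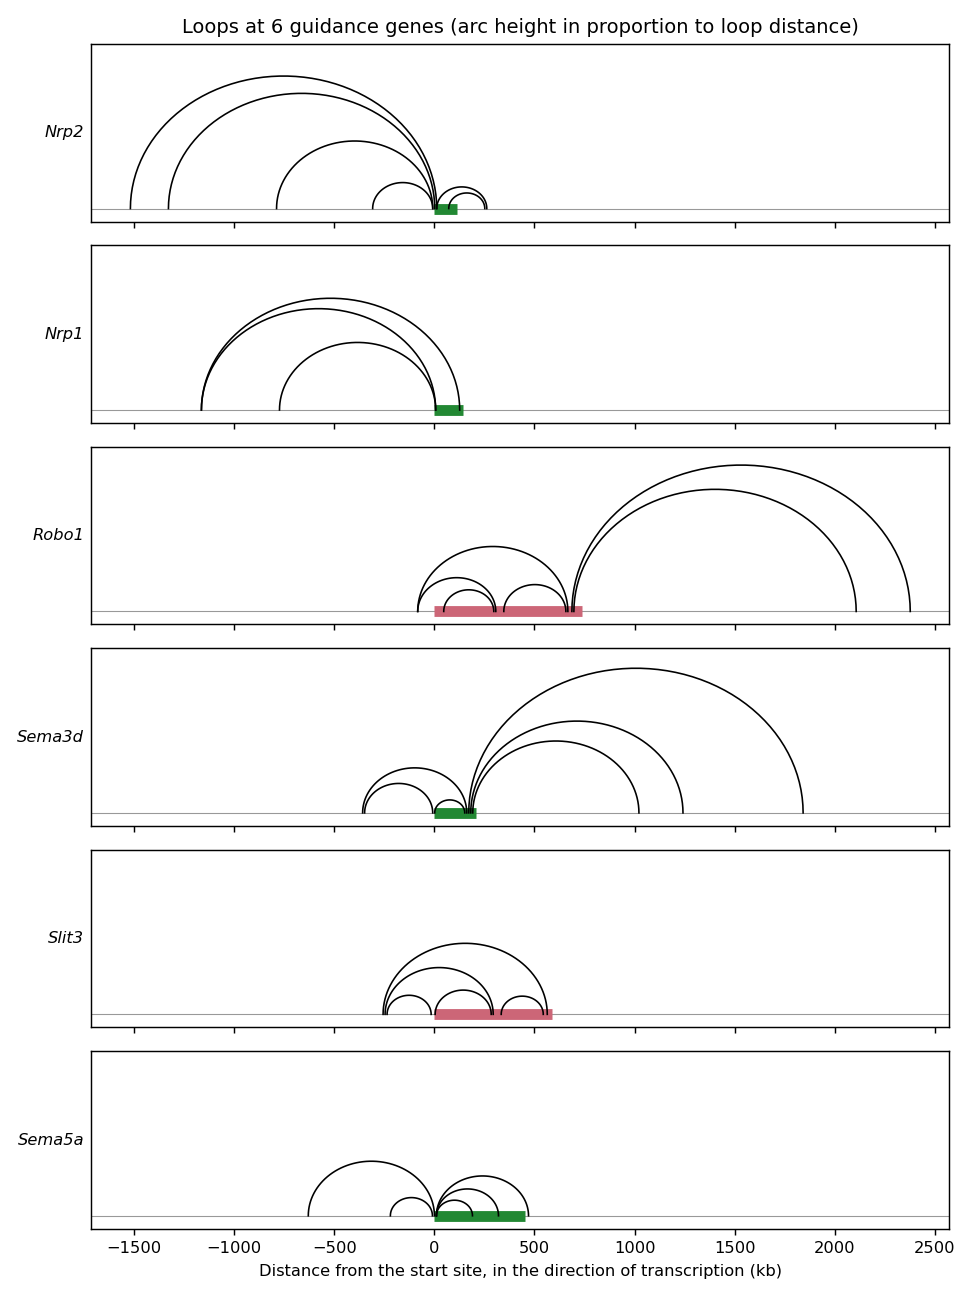
Loops at Nrp2, Nrp1, Robo1, Sema3d, Slit3 and Sema5a, drawn as arcs between the middles of the anchor bins; the horizontal axis is the distance from the start site in kb in the direction of transcription, the thick bar is the gene body, and arc height is in proportion to loop distance. Nrp2 and Nrp1 reach upstream over as much as 1530 and 1290 kb, Robo1 and Sema3d reach downstream over as much as 1690 and 1670 kb, and the arcs of Slit3 and Sema5a stay within 820 and 630 kb.

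Of the plexin-A receptors, Plxna4 (chr6:32144268-32588192, minus strand) had 4 loops, Plxna2 had 3 and Plxna1 none. The start bin of Plxna4 was joined to an intron 263 kb inside the gene by the second strongest loop of the set (260 kb, FDR 3.02e-05), and to a bin past the 3′ end (570 kb, FDR 0.0976). A bin beyond the 3′ end was joined both to exon 4 (370 kb, FDR 0.00569) and to the bin before the start (650 kb, FDR 0.00197), the latter enclosing the gene. In Plxna2, a bin near the start was joined to a bin with exons 25 to 29 (180 kb, FDR 0.0902), and both ends of the gene were joined to 1 bin upstream (930 kb, FDR 0.0255, and 1120 kb, FDR 0.0183). Plxna1 lay inside 2 loops, the smaller of 600 kb with no other whole protein-coding gene in it.

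The secreted class 3 semaphorins Sema3d, Sema3a and Sema3e follow one another on chromosome 5, and loops joined Sema3d to both others. Sema3d (chr5:12383385-12588948, plus strand) had 6 loops, more than 98 of its genes of like length. Its 3′ part held 5 adjacent anchor bins, each with a loop of its own. The first was joined back to the start bin (150 kb, FDR 0.0236) and the second to a bin upstream of the gene (520 kb, FDR 0.00107). The third was joined to exons 6 to 9 of Sema3e over 1670 kb (FDR 0.0686), the fourth over 1060 kb to a bin beyond Sema3a (FDR 0.000909) and the fifth to the inside of Sema3a over 830 kb (FDR 0.00705). The loops to Sema3e and beyond Sema3a enclosed the whole of Sema3a. A further anchor, 8.39 kb before the start, was joined 340 kb upstream (FDR 0.0224). The strongest of the 6, that of 1060 kb, had exact matches to the CTCF consensus in both anchors.
Sema3d intron, plus strand, chr5:12562358-12562387: atgtctgaCCACCAGAGGGCAGttgatgct
Beyond Sema3a, minus strand, chr5:13629234-13629263: catattgaCCAGTAGGTGGCGCgcttgctc
Capitals mark the match, which runs towards the other anchor in each case.

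Sema3a (chr5:13125414-13602565, plus strand), whose product repels many sensory axons, used the bin joined to Sema3d for a second loop as well, to exons 14 and 15 at its own 3′ end (180 kb, FDR 0.00137). No anchor lay within 20 kb of its annotated start, which was 274587 bp from the nearest. The bin joined to Sema3d did, however, hold exon 1 of the transcript used for exon numbers. Sema3e had 2 loops, both from its 3′ part and both running upstream (1670 kb to Sema3d, and 580 kb with an FDR of 0.0675). Sema3c, further along the chromosome, had its start bin joined 630 kb upstream (FDR 0.0137) and the next bin joined 170 kb downstream past the gene (FDR 0.0767). A strong loop of 820 kb (FDR 3.07e-05) spanned Sema3c from the same far bin. Sema3f, at 29.0 kb, had no loop and was not spanned.

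All 4 transmembrane semaphorins of the set had anchors. Of those outside the set, Sema4a, Sema4b, Sema4c and Sema6b had an anchor, while Sema4d, Sema4f, Sema4g and Sema6c had none. Gene length was not matched between these 2 groups. Sema5a (chr15:32244810-32696341, plus strand) had 5 loops, all with an anchor within 20 kb of the start. Its start bin was joined 630 kb upstream into the body of Fam173b (FDR 0.0207). The next bin downstream was the only anchor bin of the set with 3 loops. They led to introns and exons inside the gene over 180 kb (FDR 0.00605) and 310 kb (FDR 0.0805), and past its 3′ end over 460 kb (FDR 0.00433). Sema5b had a single loop, from the start bin to exons 2 and 3 (80 kb, FDR 0.0466). Sema6d, a ligand of plexin-A receptors, had 3 loops running downstream. Of these, 2 met in 1 bin past the gene (820 kb, FDR 0.000160, and 310 kb, FDR 0.0300). The 310 kb loop left from a bin that held exon 1. The third loop reached the body of Slc12a1 (1110 kb, FDR 0.00238). Sema6a had 2 loops of 290 and 360 kb (FDR 0.00679 and 0.00376) that met in the body of Commd10.

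**Figure D5:**
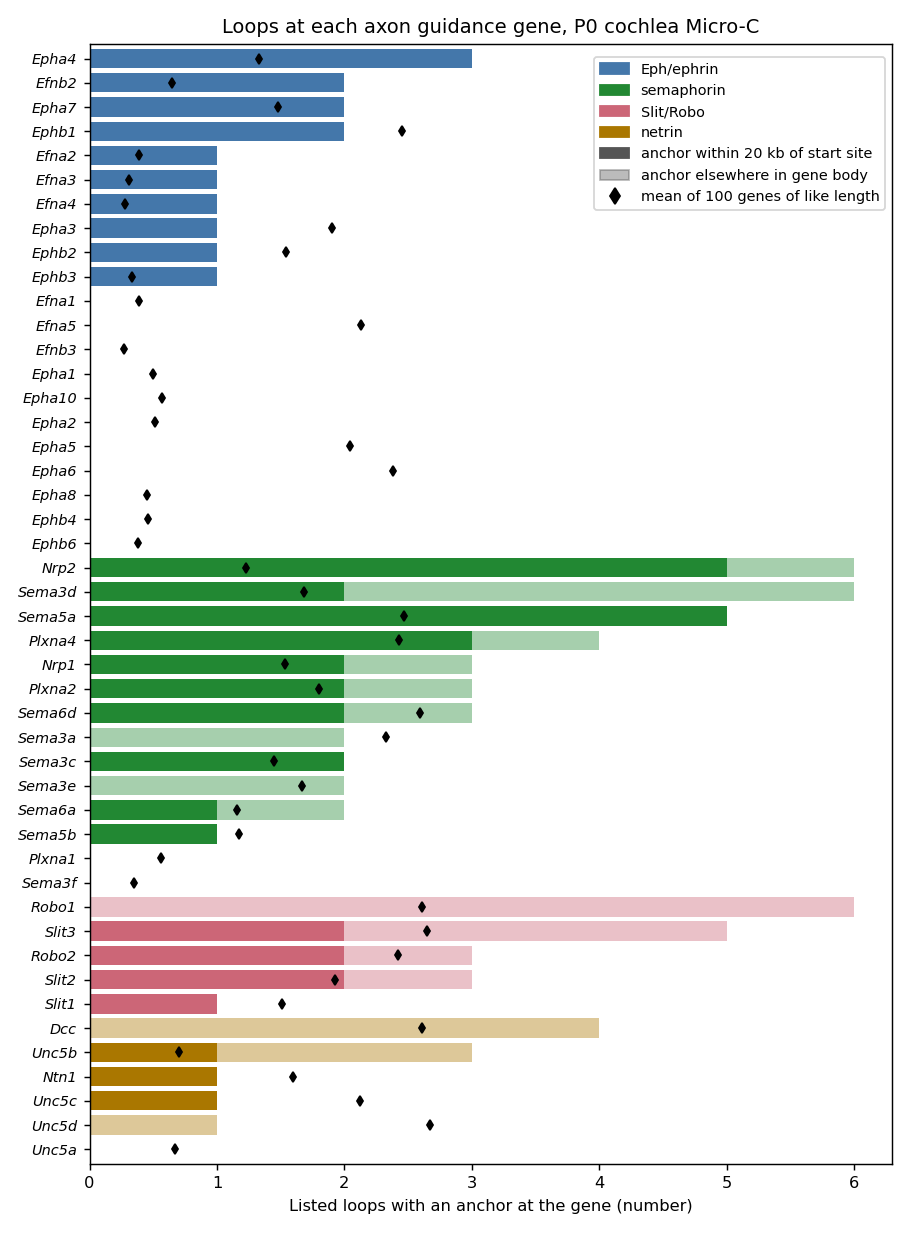
Number of listed loops with an anchor at each of the 46 genes (horizontal axis), by family. Full colour marks loops with an anchor within 20 kb of the start site, pale colour loops anchored elsewhere in the body, and diamonds the mean of 100 genes of like length; Nrp2, Sema3d and Robo1 have 6 loops each and 14 genes have none.

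In Robo1, Nrp1, Plxna2, Plxna4, Sema6a and Sema6d, 2 loops of the gene shared their far bin. These were 6 of the 21 guidance genes with 2 or more loops, or 28.6%. The share was 17.7% for such genes of like length, where a gene may be counted for several guidance genes, and 6.99% of such genes overall. The number of loops per gene was not matched in these comparisons. By role, 16 of 20 ligand genes (semaphorins, ephrins, Slits and netrin-1) had an anchor against 11.8 expected, and 16 of 26 receptor genes against 15.6. Start sites in an anchor bin were found in 8 ligand and 8 receptor genes. Of 73 different anchor bins in gene bodies, 52 held an exon of some transcript and 21 were intronic. The share of other body bins with an exon was not available for comparison. Of the 50 pairs with an anchor near the start site, 27 ran downstream and 23 upstream, the far bin lay in the same gene in 11, and it touched no protein-coding gene and held no noncoding start site in 24.

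The CTCF consensus was found in the anchors about as often as elsewhere in the list. With at most 1 mismatch over 14 bases, 69 of 139 anchor bins of loops at guidance genes held a match (49.6%), against 48.4% of all anchor bins. Where each anchor had its best match on 1 strand, the matches faced each other in 13 of 19 loops, or 68.4% (95% Wilson interval 46 to 84.6%, for counting error only). In the list, the matches faced each other in 68.3% of 1502 loops. A match is a sequence description and not a measured binding site.

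Guidance genes outside the set were counted in the same way. Of 54 further genes, 29 had an anchor against 27.5 expected from like length, and 10 had the start site in an anchor bin against 5.29. Among the 30 of them that encode ligands or receptors, 13 had an anchor against 11.8 expected and 4 the start site in an anchor bin against 2.35, and among the 24 that act inside the growth cone the start site count was 6 against 2.94. The 10 genes were the ligand and receptor genes Efnb1, Sema4c, Ntng1 and Plxnc1, and Nck2, Enah, Vav2, Mical3, Srgap1 and Trio of the growth cone list. Efnb1, the remaining ephrin-B ligand and a gene of 12.9 kb on the X chromosome, had 3 loops at its start bin and 4 in all.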

How the data were processed

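The deposited list was made by the authors from Micro-C of the cochlea: reads were aligned to mm10 with BWA-MEM, sorted and deduplicated with pairtools, 4 replicates were merged, and loops were called with Mustache on a Juicer matrix at 10 kb (tool versions not given in the sources used here). Each deposited loop carries an FDR, a p-value adjusted by the caller (below 0.1), and a detection scale, a score of the filter width. Bin positions were used as deposited, with starts moved to count from 1. Genes came from GENCODE vM21, and sequences from RefSeq GRCm38.p6, which shares the chromosome sequences of mm10. The gene list and the comparisons were chosen with earlier results of these data known. Genes described by position were those with most loops, with the start site in an anchor bin, with both anchors of 1 loop in the body or joined to another member, and the remaining members were also accounted for. Like length meant the 100 protein-coding genes, members left out, nearest in log length. The CTCF consensus was written from general knowledge. Overlaps were computed with pandas 2.3.3 and numpy 2.4.6 under Python 3.11.15, intervals with scipy 1.17.1, and overlaps and motif search were tested on simulated data. No replicate error or significance test was available, because the list merges all replicates. Libraries of other assays were not analysed here.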

Additional observations from a re-analysis of the deposited data

How the results depend on the processing

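No paired analysis was possible because the list merges all 4 replicates, and for the same reason leaving out each replicate could not be run. At an FDR under 0.01 the list kept 34 loops at guidance genes, and genes with an anchor fell to 20, against 19.3 expected from like length (19 in the body, 16 within 20 kb of the start, 5 Eph/ephrin and 3 netrin genes; 4672 of all protein-coding genes). Alternatives added after seeing the data gave, at the same FDR, 8 genes with the start site in an anchor bin against 2.36 expected, 8.43 expected within 20 kb against the 16 found, and 6 genes with both anchors of 1 loop in the body. Loops of 1 Mb or more made up 17.6% of the loops at guidance genes at FDR under 0.01 and 23.4% at FDR under 0.05. At FDR under 0.05 the start site count was 16 against 3.97. With the start of any transcript it was 21 against 10.7, and 30 genes against 23.2 expected had an anchor within 20 kb. Loops under 1 Mb spanned 10 genes. No count expected from like length was available at that limit, so this count cannot be set beside the background. The share of loops with CTCF matches facing each other was 43.8% with at most 2 mismatches (21 of 48; 57.3% in the list) and 100% with none (3 of 3; 82.4% in the list). The other alternatives, among them merging calls within 100 kb, which removed 1001 calls, kept each count within 1.5 times. Bins of 10 kb cannot place an anchor more finely than a gene's start and its first exons.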
